A study of Mus musculus with 8 samples.

Results

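Carbonic anhydrases and acid exporters are the enzymes and carriers by which cells handle the acid and CO2 of their own metabolism. They were followed here in whole MT-ret tumours of mice that received either an Ang2-blocking antibody (Ang2 is angiopoietin-2, a ligand of the endothelial receptor Tie2) or its isotype control. The set holds 9 genes, chosen by name: the carbonic anhydrase genes Car2, Car4, Car8, Car9, Car12, Car13 and Car14, the bicarbonate carrier gene Slc4a4 and the lactate carrier gene Slc16a3. A member was measured by the probe set whose annotation names that gene alone, which left 8 of the 9 genes, out of 22840 genes on the array with such a probe set. The probe set of Car14 also names Aph1a and is described separately.

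MT-ret is a mouse melanoma model driven by a Ret transgene. C57BL/6N mice carried fragments of such tumours on the flank, and antibody was given from day 7 after implanting until the primary tumour was taken out. The anti-Ang2 group and the control group, here called IgG, hold 4 tumours each, and both carried MT-ret tumour fragments in the same host strain. Age, sex and the number of donor tumours are not given in the sources used here. RNA came from the whole tumour piece, so fewer cells of a type and less RNA per cell cannot be told apart in any value below.

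Carbonic anhydrases interconvert CO2 and bicarbonate. Those that face outward (Car4, Car9, Car12 and Car14) act at the cell surface, while Car2 and Car13 work in the cytosol, and Car8 is a related protein without catalytic activity. Cells that rely on glycolysis export lactate together with a proton through monocarboxylate transporters, of which Slc16a3 encodes MCT4. Slc4a4 encodes NBCe1, which carries bicarbonate with sodium across the membrane. Car9 and Slc16a3 are known targets of hypoxia-inducible factor (HIF), the transcription factor of the low-oxygen response.

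HIF recognises a short core motif, ACGTG or GCGTG, so the sequence at the gene starts is shown for Car9, Slc16a3, Car12 and Car4. Promoter windows from RefSeq (build GRCm38.p6) run from 250 bases before to 50 bases after a gene's start and were found for 6 of the 9 members, with Car2, Car8 and Car13 missing. Both strands were searched, the window is printed 5′ to 3′ on the gene's strand, and capitals mark ACGTG or its reverse complement CACGT. The window of Car9 lies at chr4:43506776-43507075 (plus strand) and holds 1 match on the opposite strand, which begins 18 bases before the start.
Car9: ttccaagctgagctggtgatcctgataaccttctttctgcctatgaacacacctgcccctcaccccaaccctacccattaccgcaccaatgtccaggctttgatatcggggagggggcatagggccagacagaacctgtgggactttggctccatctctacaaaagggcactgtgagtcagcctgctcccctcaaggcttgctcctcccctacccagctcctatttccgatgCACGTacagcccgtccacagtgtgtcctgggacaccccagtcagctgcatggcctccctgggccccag
The window of Slc16a3 at chr11:120948817-120949116 (plus strand) holds 2 matches on the gene's own strand, which begin 27 and 14 bases before the start.
Slc16a3: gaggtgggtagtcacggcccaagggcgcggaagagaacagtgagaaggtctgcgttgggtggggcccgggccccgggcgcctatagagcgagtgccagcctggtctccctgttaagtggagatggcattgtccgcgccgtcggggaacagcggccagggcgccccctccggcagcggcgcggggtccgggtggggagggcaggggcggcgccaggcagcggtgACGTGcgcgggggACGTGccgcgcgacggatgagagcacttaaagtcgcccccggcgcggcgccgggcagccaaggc
The window of Car12 at chr9:66713436-66713735 (plus strand) holds neither core.
Car12: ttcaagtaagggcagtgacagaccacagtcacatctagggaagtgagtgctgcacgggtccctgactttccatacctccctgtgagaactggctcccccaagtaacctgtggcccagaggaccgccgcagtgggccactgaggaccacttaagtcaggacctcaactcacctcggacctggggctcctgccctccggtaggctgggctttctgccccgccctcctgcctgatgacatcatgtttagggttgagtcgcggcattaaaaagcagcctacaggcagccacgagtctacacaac
The window of Car4 at chr11:84957504-84957803 (plus strand) holds 1 match on the opposite strand, 2 bases after the start.
Car4: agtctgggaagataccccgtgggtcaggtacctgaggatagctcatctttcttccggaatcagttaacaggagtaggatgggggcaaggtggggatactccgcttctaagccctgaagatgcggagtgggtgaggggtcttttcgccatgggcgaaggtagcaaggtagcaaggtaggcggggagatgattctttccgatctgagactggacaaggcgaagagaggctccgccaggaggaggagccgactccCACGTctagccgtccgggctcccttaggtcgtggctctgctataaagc
In all, 4 of the 7 windows of these members held ACGTG (Car4, Car9, Car14 and Slc16a3), and 1 of the 2 windows of Slc4a4 held GCGTG. Among all 32851 windows of this length, 19.6% held ACGTG and 32.4% held GCGTG on either strand. ACGTG also lies inside CACGTG, the E-box, which 7.15% of all windows held and none of the members' windows did. A match describes letters in a window and does not show binding.

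The 8 arrays had medians of 6.09 to 6.15 log2 intensity units, and their profiles correlated pairwise at 0.967 to 0.988 (a correlation across genes, which are no replicates). Melanocytic genes were bright in every tumour, with list means of 10.9 to 11.0 in the anti-Ang2 and 10.5 to 11.1 in the IgG group. The difference between groups had a standard error (SE) with a median of 0.108 log2 units over all genes, and the number of arrays limits this precision. Over all genes, limma's moderated test with Benjamini-Hochberg adjustment gave 0 of 22840 genes (0%) an adjusted p under 0.05, while 7.09% had an unadjusted p under 0.05. The ranges of the groups did not overlap for 3.74% of all genes. Every difference is the anti-Ang2 mean minus the IgG mean in log2 units, and a level of one gene is not set against that of another.

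None of the 8 measured members passed the test: 0 had an adjusted p under 0.05, against 0% of all genes, and 0 an unadjusted p under 0.05, against 7.09% of all genes. For 0 of the 8 did the groups stand apart without overlap, against 3.74% of all genes. Means were higher in anti-Ang2 tumours for Car8, Car9, Car12, Car13 and Slc16a3 and lower for Car2, Car4 and Slc4a4, that is 5 higher and 3 lower, where 53.5% of all genes had a higher mean. Of all genes 4.09% had an unadjusted p under 0.05 with a higher mean and 3% with a lower one. The median difference of the members was 0.06, where that of all genes was 0.01. This median depends on single arrays: it was 0.018 without IgG replicate 1, 0.11 without IgG replicate 3, 0.12 without anti-Ang2 replicate 4 and -0.017 with IgG replicates 1 and 2 left out together. Adjusted p-values of the members lay between 0.716 for Car9 and 0.983 for Car4. What sets the members apart from each other is how much they vary between tumours of one group: the within-group SD ran from 0.08 for Car8 to 1.00 for Car2.

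**Figure D1:**
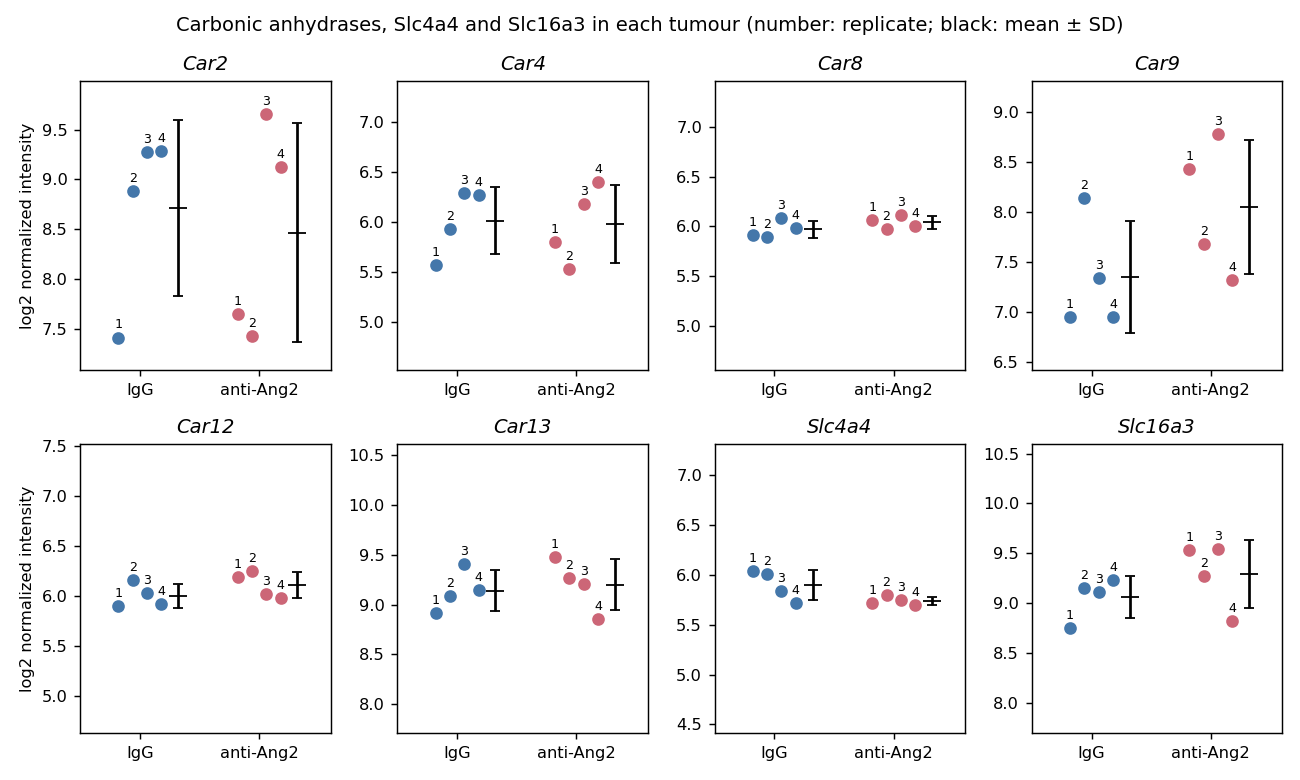
Log2 normalized intensity (vertical axis, the same span in each panel) of the 8 measured genes in the 4 IgG tumours (blue) and the 4 anti-Ang2 tumours (red), with the replicate number above each point and the group mean ± SD in black. Car2 and Car9 spread over 2.24 and 1.83 log2 units, Car8 over 0.22, and the groups overlap for every gene.

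Car9, the outward-facing enzyme known for its induction by hypoxia, had the largest difference of the set. In the anti-Ang2 tumours its log2 level was 8.43, 7.67, 8.78 and 7.32 in replicates 1 to 4. In the IgG tumours it was 6.95, 8.14, 7.34 and 6.95. Anti-Ang2 replicates 1 and 3 were the highest of all 8 tumours, but IgG replicate 2 came next and anti-Ang2 replicate 4 lay below IgG replicate 3. The means were 8.05 ± 0.67 and 7.34 ± 0.56 (SD, n = 4 each), a difference of 0.71 (SE 0.33, 95% interval -0.03 to 1.44). As a fold this is 1.63, with an interval of 0.980 to 2.71, which runs from about no difference to a large one. Limma gave an unadjusted p of 0.0580 and an adjusted p of 0.716, and the two-sided exact permutation p was 0.2, where 0.0286 is the smallest that 4 against 4 tumours allow. Leaving out IgG replicate 2 gave 0.97 and leaving out anti-Ang2 replicate 3 gave 0.46, with limma adjusted p-values of 0.864 and 0.831. The authors' deposited table gives a ratio of mean intensities of 1.66 with an unadjusted p of 0.188.

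Slc16a3, the gene of the lactate and proton exporter MCT4, had a bright signal (percentile 92.1 of all gene means) and a smaller spread. Its levels were 9.53, 9.27, 9.55 and 8.82 in anti-Ang2 replicates 1 to 4 and 8.75, 9.15, 9.11 and 9.23 in IgG replicates 1 to 4. Anti-Ang2 replicates 1, 2 and 3 lay above all IgG tumours, and replicate 4 lay below all of them but IgG replicate 1. The difference was 0.23 (SE 0.17, interval -0.13 to 0.60; limma adjusted p = 0.824; exact permutation p = 0.257). Without anti-Ang2 replicate 4 it was 0.39 with an unadjusted limma p of 0.0150, which did not pass over all genes (adjusted p = 0.478). Leaving out anti-Ang2 replicate 1 or 3 gave 0.15 each, and leaving out IgG replicate 1 gave 0.13. A further probe set, which names Csnk1d beside Slc16a3, differed the other way (-0.29; exact permutation p = 0.343) and is not assigned to either gene. The annotation text of the probe set used for Slc16a3 is cut short, so further gene names on it are possible.

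Of the other surface enzymes, Car12 had a dim signal, close to the median gene (percentile 48.7). Its levels were 6.19, 6.25, 6.01 and 5.98 in anti-Ang2 replicates 1 to 4 and 5.90, 6.16, 6.03 and 5.92 in the IgG replicates. The 2 highest values were in anti-Ang2 tumours and the 2 lowest in IgG tumours, with overlap between, and the difference was 0.11 (interval -0.11 to 0.32; limma adjusted p = 0.862). The probe set that names Car14, another membrane-bound enzyme, together with Aph1a, a subunit of gamma-secretase, read 9.98, 9.98, 10.06 and 9.34 in the anti-Ang2 and 9.47, 9.18, 9.80 and 9.47 in the IgG replicates. Its difference was 0.36 (exact permutation p = 0.114), with anti-Ang2 replicate 4 inside the IgG range. Which of the 2 genes gave this signal cannot be told apart.

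Car13, a cytosolic enzyme, had levels of 9.47, 9.27, 9.21 and 8.85 in the anti-Ang2 and 8.92, 9.09, 9.41 and 9.15 in the IgG replicates. The ranges almost coincided, and the difference of 0.06 had an interval of -0.25 to 0.37 (limma adjusted p = 0.956). Car8, the inactive relative known for binding the inositol trisphosphate receptor in Purkinje cells, varied least. It stayed between 5.90 and 6.12 in all 8 tumours, with a difference of 0.07 (interval -0.11 to 0.25; limma adjusted p = 0.894). Its signal was dim, at percentile 46.9 of all gene means.

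Car2, the fast cytosolic enzyme known from red cells, kidney and osteoclasts, was the most variable member, with a within-group SD at percentile 99.9 of all genes. Its levels were 7.65, 7.43, 9.66 and 9.13 in anti-Ang2 replicates 1 to 4. They were 7.41, 8.88, 9.27 and 9.28 in IgG replicates 1 to 4. Thus 3 tumours (anti-Ang2 replicates 1 and 2 and IgG replicate 1) lay at 7.65 or below and the other 5 at 8.88 or above, with both groups on either side of the gap. The difference was -0.25 with an interval of -1.41 to 0.92 (limma adjusted p = 0.950; exact permutation p = 0.886). It became 0.03 and 0.10 without anti-Ang2 replicate 1 or 2, and -0.68 and -0.64 without IgG replicate 1 or anti-Ang2 replicate 3.

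Car4, a surface enzyme held by a lipid anchor and known from capillary endothelium, was low in the same 3 tumours. It read 5.80, 5.53, 6.19 and 6.40 in the anti-Ang2 and 5.57, 5.93, 6.29 and 6.27 in the IgG replicates. The 3 tumours lowest in Car2 were also the 3 lowest in Car4, while the signal lay at percentile 46.5 of all gene means. Its difference was -0.03 (interval -0.49 to 0.42; limma adjusted p = 0.983), and it ranged from -0.18 to 0.12 with each array left out in turn. General markers of blood vessel endothelium, beside which Car4 can be read, had list means of 7.09 to 7.42 in the anti-Ang2 and 7.15 to 7.26 in the IgG group. Anti-Ang2 replicate 2 was lowest in both. Anti-Ang2 replicate 1 and IgG replicate 1, also low in Car4, had endothelial list means of 7.31 and 7.24. In IgG replicate 2, which was not among the lowest in Car4, it was 7.15. In the 3 tumours low in Car2, the 7 measured red cell markers had list means of 6.28, 6.40 and 6.29, within the range of 6.19 to 6.47 of the other 5. Another 5 red cell markers, among them the haemoglobin genes Hba-a1, Hbb-bs and Hbb-bt, were not measured, which limits what this list can show. The 17 macrophage and osteoclast markers had list means of 6.99, 7.01 and 7.03 in the same 3 tumours, above 4 of the other 5 tumours, which lay between 6.66 and 7.04. The part of these cells in the levels of Car2 and Car4 was not tested.

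Slc4a4, the sodium bicarbonate carrier, had the second smallest limma p of the members, after Car9, and the smallest exact permutation p. Its signal was dim, at percentile 38.5 of all gene means. Its levels were 5.71, 5.79, 5.75 and 5.69 in the anti-Ang2 and 6.04, 6.01, 5.84 and 5.72 in the IgG replicates. The anti-Ang2 tumours were close together, and IgG replicates 1, 2 and 3 lay above them while IgG replicate 4 lay within their range. The difference was -0.16 (SE 0.09, interval -0.37 to 0.04; limma adjusted p = 0.766; exact permutation p = 0.0857). Skeletal muscle genes moved with it: the mean of 16 such genes was 9.47 and 8.06 in IgG replicates 1 and 2, 6.26 and 7.32 in the other IgG tumours, and 5.97 to 7.43 in the anti-Ang2 tumours. All 16 were lower in anti-Ang2 tumours, 12 of them with an unadjusted limma p under 0.05 (75%, where 3% of all genes were lower with such a p) and 0 with an adjusted one. With both IgG tumours of highest muscle signal left out, the difference of Slc4a4 was -0.04. These were also the 2 tumours highest in Slc4a4, so leaving them out shrinks the difference in any case. That choice was made after seeing the data, and the part of muscle tissue in the difference was not tested.

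The measured members were also compared with each other over the 8 tumours. Of 28 pairs, the 7 with Car2 are not reported as correlations, since its values fall into separate groups of tumours too small for one. Among the other 21 pairs, 2 had an unadjusted two-sided exact permutation p under 0.05 for Pearson's r, and 0 did after adjustment over the 28 pairs. Car9 and Slc16a3 correlated at r = 0.781 (exact permutation p = 0.0253, adjusted p = 0.262) and rho = 0.714 (exact permutation p = 0.0576, adjusted p = 0.449). Without anti-Ang2 replicates 1 and 3, the tumours farthest from the median of Car9, r was 0.417. The remaining tumours thus showed the relation less, over a narrower range of Car9. Computed on deviations from the group means, r was 0.723. Car13 and Slc16a3 correlated at r = 0.760 (exact permutation p = 0.0281, adjusted p = 0.262) and rho = 0.643 (exact permutation p = 0.0962, adjusted p = 0.449). Here r was 0.529 without the 2 tumours farthest from the median of Car13 and 0.779 on deviations from the group means.

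Genes of the hypoxia response were set beside Slc16a3 and Car9. Of 19 measured hypoxia targets, a list without any member, 19 had a higher mean in anti-Ang2 tumours, with a median difference of 0.45. All genes had a higher mean in 53.5% of cases. Of the 19, 12 were higher with an unadjusted limma p under 0.05 (63.2%, where all genes gave 4.09% in this direction). The list was chosen with earlier results of these data known, so these counts are no independent result. The 5 of smallest p were Kdm3a, P4ha2, Ndrg1, Slc2a1 and Egln3, with differences from 0.54 to 1.19. None passed over all genes. With both IgG tumours of highest muscle signal left out, the count of 12 was 6 and the median 0.28, where 1384 of 22840 genes had such a p in either direction. In that fit Kdm3a differed by 0.47, P4ha2 by 0.44, Ndrg1 by 0.74, Slc2a1 by 0.43 and Egln3 by 0.62. With all tumours they differed by 0.54, 0.58, 1.19, 0.72 and 0.97. The tumours left out, IgG replicates 1 and 2, were also the 2 lowest in the hypoxia list, so these values shrink in any case. The list mean was 9.90, 9.62, 9.83 and 9.47 in anti-Ang2 replicates 1 to 4 and 8.94, 9.23, 9.46 and 9.44 in IgG replicates 1 to 4. Slc16a3 followed it over the 8 tumours at r = 0.839 (exact permutation p = 0.00888, adjusted p = 0.0637 over 21 relations) and rho = 0.762 (exact permutation p = 0.0368, adjusted p = 0.154). Its r was 0.621 without the 2 tumours farthest from the list's median and 0.872 on deviations from the group means. Car9 followed the same list at r = 0.680 (exact permutation p = 0.0640, adjusted p = 0.157) and rho = 0.667 (exact permutation p = 0.0831, adjusted p = 0.202), with r = 0.453 without those 2 tumours and 0.483 on deviations. Car9 was high in IgG replicate 2, where the hypoxia list was second lowest.

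Slc16a3 followed the immediate early and tissue handling genes as closely, at r = 0.879 (exact permutation p = 0.00330, adjusted p = 0.0637) and rho = 0.905 (exact permutation p = 0.00456, adjusted p = 0.0958). Without the 2 tumours farthest from that list's median r was 0.731, and on deviations from the group means it was 0.911. That list mean ran from 8.17 to 8.55 in the anti-Ang2 and from 8.07 to 8.29 in the IgG tumours. Of its 16 genes, 14 had a higher mean in anti-Ang2 tumours, where 53.5% of all genes did. An unadjusted limma p under 0.05 was found for 7 of the 16 (43.8%, where all genes gave 7.09%), and an adjusted one for 0. Like the hypoxia list, this list was highest in anti-Ang2 replicates 1, 2 and 3 and lowest in IgG replicates 1 and 2. The relations of Slc16a3 with these lists are therefore not separate results. The part of tissue handling in the level of Slc16a3 was not tested. Slc4a4 followed the skeletal muscle list at r = 0.825 (exact permutation p = 0.0121, adjusted p = 0.0637) and rho = 0.833 (exact permutation p = 0.0154, adjusted p = 0.152). Without IgG replicates 1 and 2 its r was 0.161, so the remaining tumours hardly showed this relation, over a narrower range of the muscle list. Car8 ran against the muscle list at r = -0.827 (exact permutation p = 0.0106, adjusted p = 0.0637) and rho = -0.810 (exact permutation p = 0.0218, adjusted p = 0.152), within its narrow range, and r was -0.723 without the same 2 tumours. Of the 21 relations of 7 members with 3 lists, 6 had an unadjusted p under 0.05 for Pearson's r and 0 an adjusted one. The other 2 were those of the hypoxia list with Car8 (r = 0.772) and Slc4a4 (r = -0.79). IgG replicates 1 and 2 were highest in the muscle list and lowest in the hypoxia list. The relations of Car8 and Slc4a4 with these 2 lists are therefore not separate results. These lists were chosen for this comparison after the values had been seen.

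**Figure D2:**
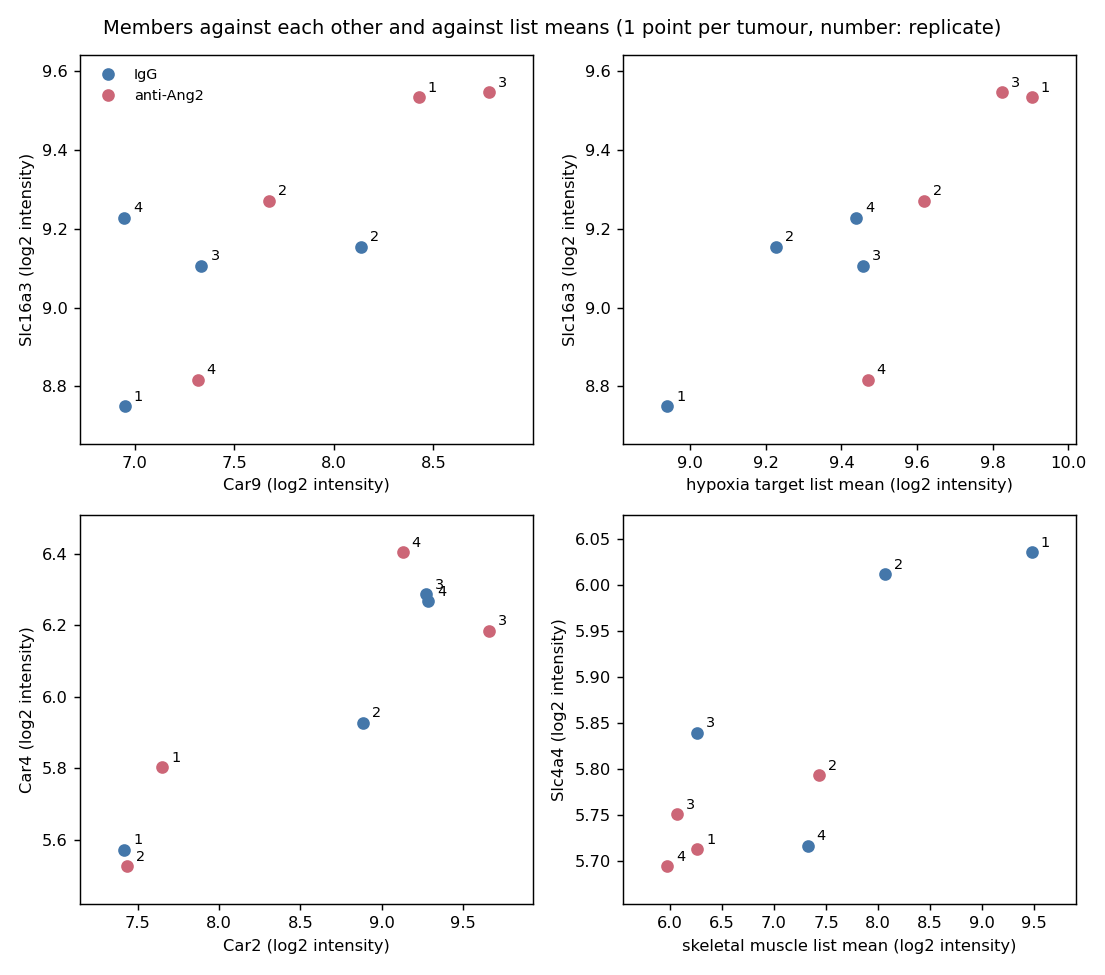
Log2 intensity of Slc16a3 against Car9 and against the mean of 19 hypoxia targets (upper row), of Car4 against Car2 and of Slc4a4 against the mean of 16 skeletal muscle genes (lower row), with 1 point per tumour, IgG in blue, anti-Ang2 in red and the replicate number beside each point. The 3 tumours low in Car2 are the 3 lowest in Car4, and the 2 highest values of Slc4a4 are IgG replicates 1 and 2.

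Genes whose profile over the 8 tumours was most like that of Car9 were taken from 1612 brighter and variable genes, with Pearson's r as the measure of likeness only. The 5 most alike were Ctnnal1, Ak1, Hspa1a, Foxj3 and Slfn1, with r from 0.866 to 0.940. Ak1, an adenylate kinase, stood at 7.56, 6.98, 7.40 and 6.51 in the anti-Ang2 and 6.54, 6.95, 6.37 and 6.10 in the IgG replicates, and like Car9 it was high in IgG replicate 2. Hspa1a encodes an inducible heat shock protein, has a near-identical copy, Hspa1b, that its probes may also read, and belongs to the tissue handling list. For Slc4a4 the 5 most alike were Src, Bag1, Pdlim3, Hspb7 and Myh2, with r from 0.936 to 0.972. Src and Bag1 were the closest, at r = 0.97 and 0.96. Pdlim3, Hspb7 and Myh2, a fast myosin heavy chain, are known from muscle, and of the 5 only Myh2 belongs to the skeletal muscle list. Myh2 read 8.02 and 7.39 in IgG replicates 1 and 2 and between 5.53 and 6.19 in the other 6 tumours.

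The wider acid-base machinery was read from 7 further lists with 98 measured genes, chosen by function with earlier results of these data known. Of these, 11 had an unadjusted limma p under 0.05 (6 higher, 5 lower; 11.2%, where all genes gave 7.09%) and 0 an adjusted one, and the median difference was 0.00, as against 0.01 for all genes. Monocarboxylate transporters and their partners held 3 of the higher genes among 18 (16.7%, where 4.09% of all genes were higher with such a p). Slc16a1, the gene of MCT1, which carries lactate and protons like MCT4, was the clearest. It read 9.81, 9.59, 9.23 and 9.09 in anti-Ang2 replicates 1 to 4 and 8.92, 8.73, 8.82 and 8.82 in IgG replicates 1 to 4, so that every anti-Ang2 tumour lay above every IgG tumour. Its difference was 0.60 (SE 0.15, interval 0.28 to 0.93, fold 1.52), with an unadjusted limma p of 0.00165 and an adjusted p of 0.473. Leaving out each array in turn gave 0.48 to 0.72, and leaving out both IgG tumours of highest muscle signal gave 0.61.

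Emb, which encodes embigin, a partner that escorts monocarboxylate transporters to the membrane, differed by 0.67 (SE 0.23; limma adjusted p = 0.659). It was highest in anti-Ang2 replicate 1, at 7.93, and between 6.40 and 6.62 in the IgG tumours. Leaving out anti-Ang2 replicate 1 gave 0.41. Slc16a6, a further family member, differed by 0.30 (limma adjusted p = 0.668), or 0.16 with IgG replicates 1 and 2 left out. Bsg, which encodes basigin, the usual partner of MCT1 and MCT4, was bright and flat, between 12.5 and 12.6 in all tumours, with a difference of 0.02 (interval -0.15 to 0.19; limma adjusted p = 0.980). Its sign turned with each array centred on its median, where the difference was -0.00036.

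Other carbonic anhydrases held 3 of 8 measured genes with an unadjusted limma p under 0.05, a share of 37.5% where all genes gave 7.09%, and 0 with an adjusted one. Of these Car10 was higher (0.21) and Car3 and Car15 lower (-2.05 and -0.22). The groups overlapped for all 3, with an exact permutation p of 0.0571 each. The signals of Car10 and Car15 were dim, at percentiles 37.2 and 41.4 of all gene means. Car3, the enzyme abundant in muscle and fat, is the extreme. It read 6.24, 8.13, 5.97 and 6.30 in the anti-Ang2 and 10.61, 9.65, 6.35 and 8.22 in the IgG replicates (limma adjusted p = 0.686). It was highest in the same 2 IgG tumours as skeletal actin (Acta1), which read 11.85 and 10.70 there. Leaving both out, the difference of Car3 was -0.63, but it shrinks in any case since these tumours held its 2 highest values. The part of muscle tissue in it was not tested. Car1, the red cell enzyme, was dim (percentile 14.1) and differed by -0.18 (limma adjusted p = 0.717).

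Of 13 other bicarbonate transporters, 0 had an unadjusted limma p under 0.05 (where all genes gave 7.09%), and the smallest p was that of Slc4a8, a sodium-driven exchanger (-0.25, SE 0.12). Among 12 genes of sodium-proton exchange and the proton channel only Slc9a5 did (-0.21). Of 23 subunits of the V-ATPase, the proton pump of lysosomes and melanosomes, 1 had such a p (Atp6v0e, -0.22, without overlap between the groups), and the median difference was -0.01. Of 9 acid-sensing receptors and channels 1 did: Gpr4, a proton-sensing receptor known from endothelium, which differed by 0.20 (SE 0.08) without overlap between the groups. Among 15 enzymes that make or use lactate and CO2, Pdk1, a kinase that restrains pyruvate entry into mitochondria, differed by 0.26 and Ldhb, the lactate dehydrogenase of oxidative tissue, by -0.31. The signal of Pdk1 was dim, at percentile 12.6 of all gene means, and the filter on the dimmest 25% removed it. Ldha, the form that favours lactate, differed by 0.28 (interval -0.06 to 0.63; limma adjusted p = 0.751). Leaving out IgG replicate 1 lowered Ldha to 0.13 and Pdk1 to 0.17. None of the genes named in this paragraph passed over all genes, and their limma adjusted p-values lay between 0.666 for Ldhb and 0.751 for Ldha.

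**Figure D3:**
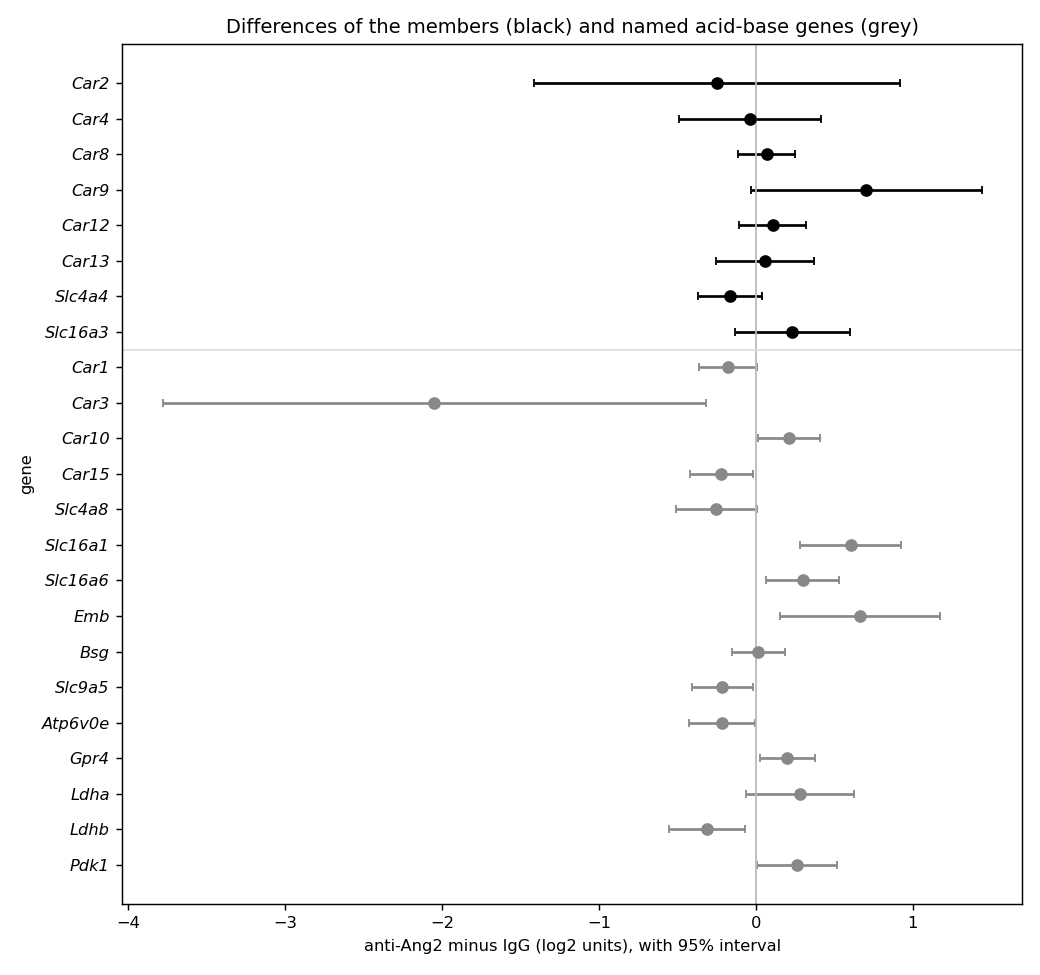
Difference of anti-Ang2 minus IgG in log2 units (horizontal axis) with its 95% interval from limma, for the 8 measured members (black) and the named acid-base genes (grey). Every member's interval includes 0, and Car3 has the widest interval, from -3.78 to -0.32.

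**Figure D4:**
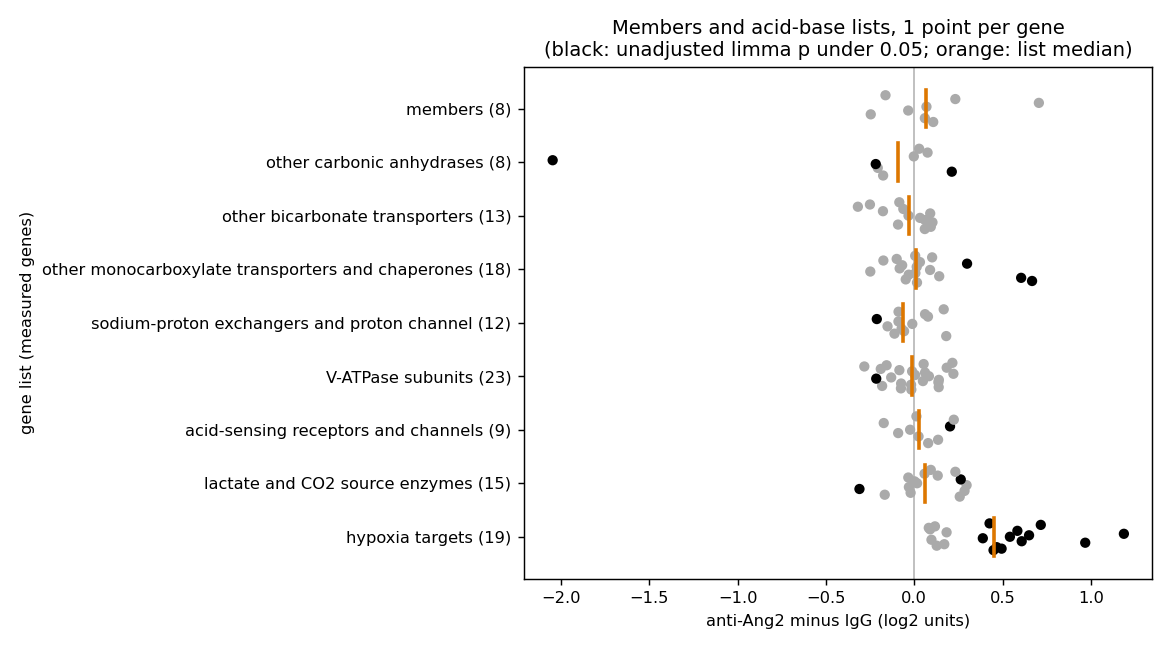
Differences (log2 units, horizontal axis) of single genes in the members and in 8 gene lists, 1 point per gene, black where the unadjusted limma p was under 0.05, with list medians in orange. All 19 hypoxia targets lie above 0, with a median of 0.45, and the acid-base lists have medians between -0.09 and 0.06. The lists were chosen with earlier results of these data known.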

How the data were processed

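RNA of 8 tumours (250 ng each) had been labelled and hybridised to Affymetrix whole-transcript arrays, per the labels' protocols. For each probe set and array, the authors deposited a normalized intensity on a linear scale; their background correction and normalization are not given in the sources used here. They also deposited a ratio or fold of group means and an unadjusted p-value per probe set, per the file headers. The p-value equals a Welch test on linear intensities to within 6.3e-08. The series value table matched the workbook to a relative difference of 4.9e-10.

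Of 24648 probe sets, 24643 had 8 values, 22844 named 1 gene, 1385 several, and the names of 418 are not reported here. Annotation texts of 2306 are cut short. Symbols were updated through a RefSeq table (21842 IDs matched). Log2 of the deposited intensities was fitted for 22840 genes with limma 3.58.1 in R 4.3.3 (lmFit, eBayes; 4.86 prior and 6 residual degrees of freedom, no covariate), with Benjamini-Hochberg adjustment over all of them and a threshold of 0.05. Single values were also compared by two-sided exact permutation over 70 assignments, and correlations over 40320 orderings. The procedure was tested on simulated data.

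The members and lists were chosen with earlier results of these data known. The rule for named genes takes all members; from each function list up to 5 genes of unadjusted p under 0.05, or else the smallest p; well-known partners, of which 1 is not reported here; and the 5 genes most like Car9 and the next member by p (SD at least 0.3, mean above the median gene). Marker lists are given as list means, apart from skeletal muscle. Protein sequences were not used here. No array was left out, and no pair held identical values (smallest SD of a log2 difference 0.227). The labels name separate tumours, and p-values measure the spread between them. Alternatives were other scalings, a filter on the dimmest 25%, eBayes options, array weights, a replicate block, all probe sets and each array left out; leaving out IgG replicates 1 and 2 together was added after seeing the data.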

Additional observations from a re-analysis of the deposited data

Results flagged for a closer look

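No member had a tumour that stood apart from the other 3 of its group by Dixon's test at 95% (0 of 16 groups of 4). Among 96 such groups over 48 results, where chance marks about 1 in 20, 3 stood out, all in anti-Ang2 replicate 2. Car3 read 8.13 there, 1.83 log2 units above the next anti-Ang2 tumour, and the skeletal muscle gene Myh4 read 8.27, 2.48 above the next. The list mean of the other carbonic anhydrases, which holds Car3, was 7.30, or 0.34 above the next.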

How the results depend on the processing

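No member passed the limma threshold over all genes under any of the alternatives run, whose adjusted p-values lay between 0.476 and 0.998. With each array left out in turn, the differences ranged from -0.68 to 0.10 for Car2, -0.18 to 0.12 for Car4, 0.04 to 0.11 for Car8, 0.46 to 0.97 for Car9, 0.06 to 0.16 for Car12, -0.032 to 0.18 for Car13, -0.22 to -0.12 for Slc4a4 and 0.13 to 0.39 for Slc16a3. The sign turned for Car2 without anti-Ang2 replicate 1 (0.03) or 2 (0.10), for Car4 without anti-Ang2 replicate 1 (0.02) or 2 (0.12) or IgG replicate 3 (0.06) or 4 (0.05), and for Car13 without anti-Ang2 replicate 1 (-0.032) or IgG replicate 1 (-0.015). Leaving out IgG replicates 1 and 2 together, chosen after seeing the data, turned Car13 to -0.079 and Bsg to -0.021. It gave 1 member (Car9) and 6 hypoxia targets with an unadjusted p under 0.05, where 1384 of 22840 genes had one. Bsg was -0.00036 with median centring and ranged from -0.00011 (without IgG replicate 1) to 0.041 with an array left out. Members with an unadjusted p under 0.05 numbered 0 to 2 with an array left out (Car9 and Slc16a3 without anti-Ang2 replicate 4), genes with an adjusted p under 0.05 numbered 0 to 1 (1 without anti-Ang2 replicate 2), and acid-base genes with an unadjusted p under 0.05 numbered 7 to 10. The replicate numbers do not pair the tumours, whose same-numbered deviations correlated at -0.0539 to 0.0802; with the replicate block 1 member, Car9 (unadjusted limma p = 0.0477), and 6 acid-base genes had an unadjusted p under 0.05. Median centring changed the genes with an unadjusted p under 0.05 from 934 higher and 685 lower to 743 and 815. The cause was not tested in any of these cases. Dim signals limit what Car4, Car8, Car12 and Slc4a4 can show. How proteins changed was not measured.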

Other observations

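Car6, a secreted carbonic anhydrase known from saliva, had a bright signal in these tumours and was picked for this after its values were seen. It read 12.43, 12.50, 11.54 and 11.76 in anti-Ang2 replicates 1 to 4 and 12.56, 11.49, 12.20 and 11.66 in IgG replicates 1 to 4, at percentile 99.8 of all gene means. The groups overlapped almost fully, with a difference of 0.08 (interval -0.51 to 0.66; limma adjusted p = 0.970). Whether its probe set reads Car6 alone was not tested. Hif1a and Epas1, which encode HIF subunits and were also picked after their values were seen, pointed opposite ways at 0.42 (SE 0.13; limma adjusted p = 0.616) and -0.45 (SE 0.32; limma adjusted p = 0.823), and Epas1 was highest, at 9.71, in IgG replicate 1.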
